A study of Mus musculus with 10 samples.

Results

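The genes described here are 6 inhibitors of cyclin dependent kinases (CDKs), Cdkn1a, Cdkn1b, Cdkn2a, Cdkn2b, Cdkn2c and Cdkn2d, together with Trp53, which encodes the transcription factor p53, and 3 genes around it, Mdm2, Ccng1 and Bbc3. The 10 genes were taken by symbol from the 48476 genes of the count table of the series, and all 10 were found there and passed the filter on low counts. They were measured by bulk RNA-seq in mouse embryonic fibroblasts (MEFs) of CBA/CaJ X C57BL/6J embryos at E13.5, which carried an Oct4-GFP reporter. All cells received Oct4, Klf4 and Sox2 (OKS) by retrovirus and were then kept in iCD1 medium, a chemically defined medium for reprogramming to pluripotency. In the OKS+FoxO6 arm the forkhead factor FoxO6 was added, and in the control arm, OKS+DR, the red fluorescent protein DsRed took its place. The transgenes were carried by retrovirus into the whole culture, with no cell type selected. Days 0, 1, 3, 5 and 7 were sampled once in each arm, which made 10 libraries with no replicate of any arm and day. The sources used here do not say whether the days of an arm came from 1 infected culture. FoxO6 had already been delivered at day 0, which is the start of induction and not an untreated state. The study asked, among other things, whether FoxO6 holds back proliferation during reprogramming, and the genes described here include the main brakes on the cell cycle.

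CDK inhibitors stop the cell before DNA replication. The Cip/Kip proteins p21 (Cdkn1a) and p27 (Cdkn1b) bind cyclin-CDK complexes and mainly hold back those of CDK2, while the Ink4 proteins p16 (from Cdkn2a), p15 (Cdkn2b), p18 (Cdkn2c) and p19 (Cdkn2d) bind CDK4 and CDK6 and keep D cyclins from activating them. Cdkn2a also encodes Arf, read in another frame, which restrains Mdm2, the ubiquitin ligase that degrades p53. p53 in turn drives Cdkn1a, Mdm2, Ccng1 and the proapoptotic gene Bbc3 (Puma), and both the Ink4/Arf locus and the p53 to p21 axis are known barriers to reprogramming of fibroblasts. FoxO factors are known to promote cell cycle arrest, with Cdkn1b as a classic target.

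Depth ran from 1208379 to 2225750 expected counts per library (median 1464719 in OKS+DR, 1984854 in OKS+FoxO6), and the OKS+DR library of day 0 was the shallowest. Foxo6 had at most 4 expected counts in each OKS+DR library and between 1743 and 3375 in OKS+FoxO6, as the labels give it. The mean effective transcript length, weighted by TPM, was 1743 bases in the day 7 library of OKS+FoxO6 and between 1871 and 2035 bases in the other 9. TPM is a transcript level divided by length, so it can be compared between genes. Counts scaled to library size by the TMM method (scaled counts) are not divided by length. Fibroblast markers were present in all libraries, with no marker of 10 at 0. Their summed TPM fell from 9111 at day 0 to 2510 at day 7 in OKS+DR and from 7850 to 2648 in OKS+FoxO6. Epithelial markers (10 genes) summed to a TPM between 42.2 and 788 in OKS+DR and between 19.6 and 201 in OKS+FoxO6, pluripotency markers (10 genes) to between 3.09 and 324 and between 0.71 and 54.3. Macrophage markers (8 genes) summed to between 15.1 and 59.3 and between 22.3 and 29.4, with 2 to 5 markers at 0 in each library, and endothelial markers (6 genes) to between 21.3 and 56.3 and between 33.0 and 105. The part of such shifts in cell state in the values below was not tested, and in these bulk samples fewer cells of a kind and less RNA per cell cannot be told apart.

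**Figure D1:**
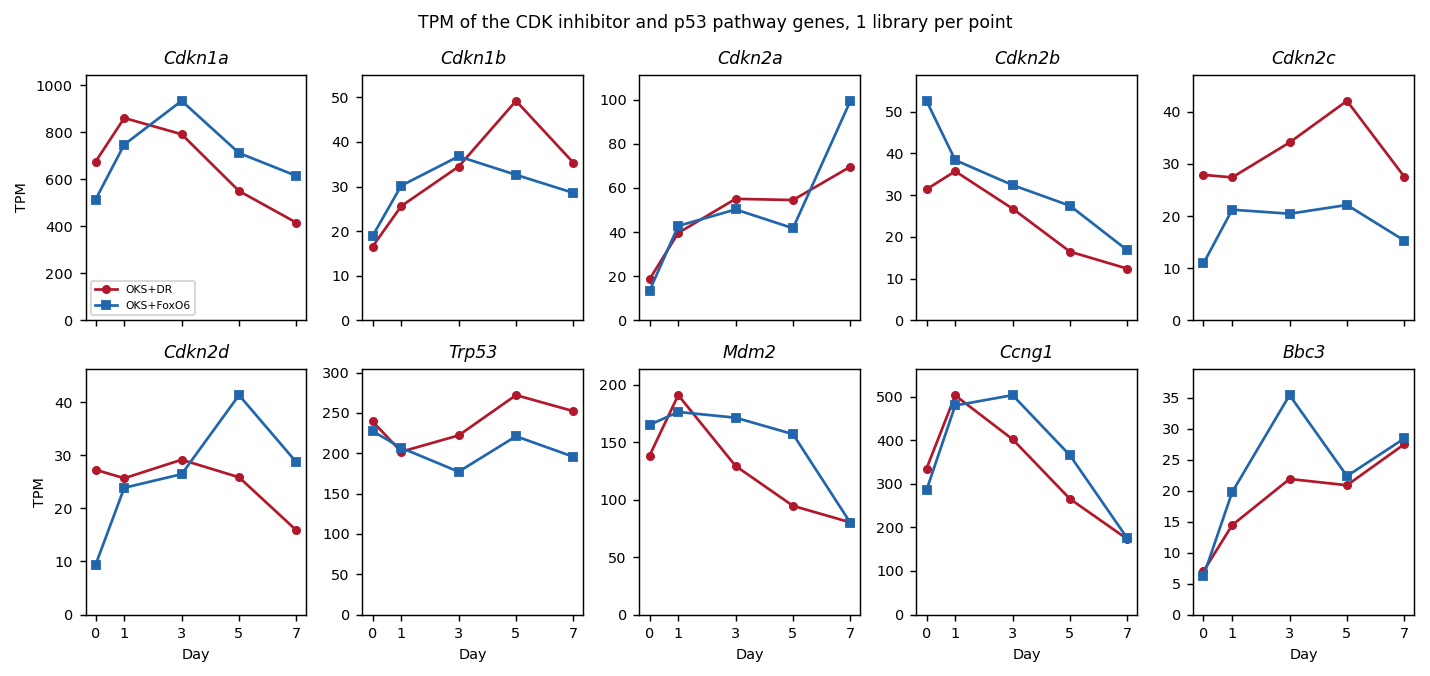
TPM of the 10 genes (vertical axes, linear from 0, a scale for each gene) against the day, with OKS+DR in red circles and OKS+FoxO6 in blue squares and 1 library per point. Cdkn2c is the gene whose points do not overlap between the arms, and Cdkn1a crosses from below OKS+DR at days 0 and 1 to above it from day 3 on.

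Over the 5 days, Cdkn2c was lower in OKS+FoxO6, and the other 9 genes did not pass the test. The test was edgeR's quasi-likelihood test of the arm on the rounded expected counts, with the days as levels of a factor. P-values were adjusted by Benjamini-Hochberg over the 10977 genes tested, and calls were made below 0.05. The days of an arm stood as its repeats in this test, which therefore describes these 2 time courses and not separate infections. Of the 10 genes 1 was called lower and none higher, where 7.13% of all genes tested were called lower and 6.99% higher, a share close to that of the 10 genes. Their median shift was 0.01 on the log2 scale, against -0.02 over all genes tested.

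**Figure D2:**
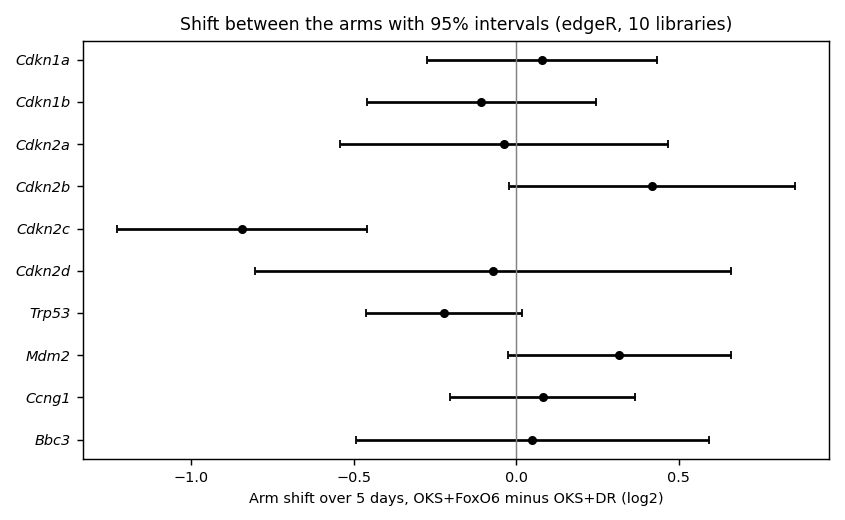
Shift between the arms for the 10 genes (horizontal axis, log2 of OKS+FoxO6 over OKS+DR, shared by the 5 days), with points for the estimate and bars for its 95% interval from edgeR. The interval of Cdkn2c, from -1.23 to -0.46, is the one that lies wholly on one side of 0.

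Cdkn1a (ENSMUSG00000023067; GRCm38, plus strand of chromosome 17, bases 29090976 to 29100727) was by far the most abundant inhibitor. From day 0 to day 7 the TPM values were 674, 860, 791, 550 and 415 in OKS+DR, against 513, 747, 933, 711 and 614 in OKS+FoxO6. The control peaked at day 1 and fell to its lowest value at day 7, while OKS+FoxO6 peaked at day 3 and ended above its own day 0. The ranges of the arms overlapped, and their shared shift was 0.08 (standard error 0.16, adjusted p = 0.802). The difference between the arms nevertheless moved with the day. The ratio of the TMM-scaled counts of OKS+FoxO6 to OKS+DR was 0.684 at day 0 (95% interval 0.622 to 0.751), 0.874 at day 1 (0.804 to 0.949) and 1.13 at day 3 (1.04 to 1.22). It was 1.21 at day 5 (1.10 to 1.33) and 1.62 at day 7 (1.47 to 1.78). These intervals are exact (Clopper-Pearson) and cover the counting of reads only, not the variation between cultures.

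A steady change of the arm difference with the day was tested as the product of arm and day number in edgeR's quasi-likelihood fit. With 1 library per arm and day, its spread is the scatter of the arm difference about a straight line. The test therefore describes these 2 time courses and not separate infections. Cdkn1a was the one gene of the 10 that passed, with a rise of 0.16 per day on the log2 scale (standard error 0.04, adjusted p = 0.0390), where 1.2% of all genes tested rose with the day by this test. The slope stayed between 0.14 and 0.17 when each day was left out in turn or the scaling was changed, but the call was lost without day 0 (adjusted p = 0.188), day 1 (0.0940), day 3 (0.0672) or day 7 (0.286). Cdkn2d had the steepest slope, 0.32 per day (standard error 0.09), with an adjusted p of 0.103. It passed in 1 of 10 alternatives, with no filter on low counts (adjusted p = 0.0377), and its adjusted p reached 0.474 in DESeq2. The slope of Mdm2 was 0.12 (standard error 0.05, adjusted p = 0.192) and that of Ccng1 0.08 (0.04, adjusted p = 0.303). Of 102 genes tested from the pathway lists described further on, 3 rose with the day, Bax (0.18 per day), Perp (0.19) and Ccnd3 (0.20). Another 2 fell, Hipk2 (-0.38) and Tbx2 (-0.36), where 0.765% of all genes tested fell. These names were chosen after their values were seen.

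**Figure D3:**
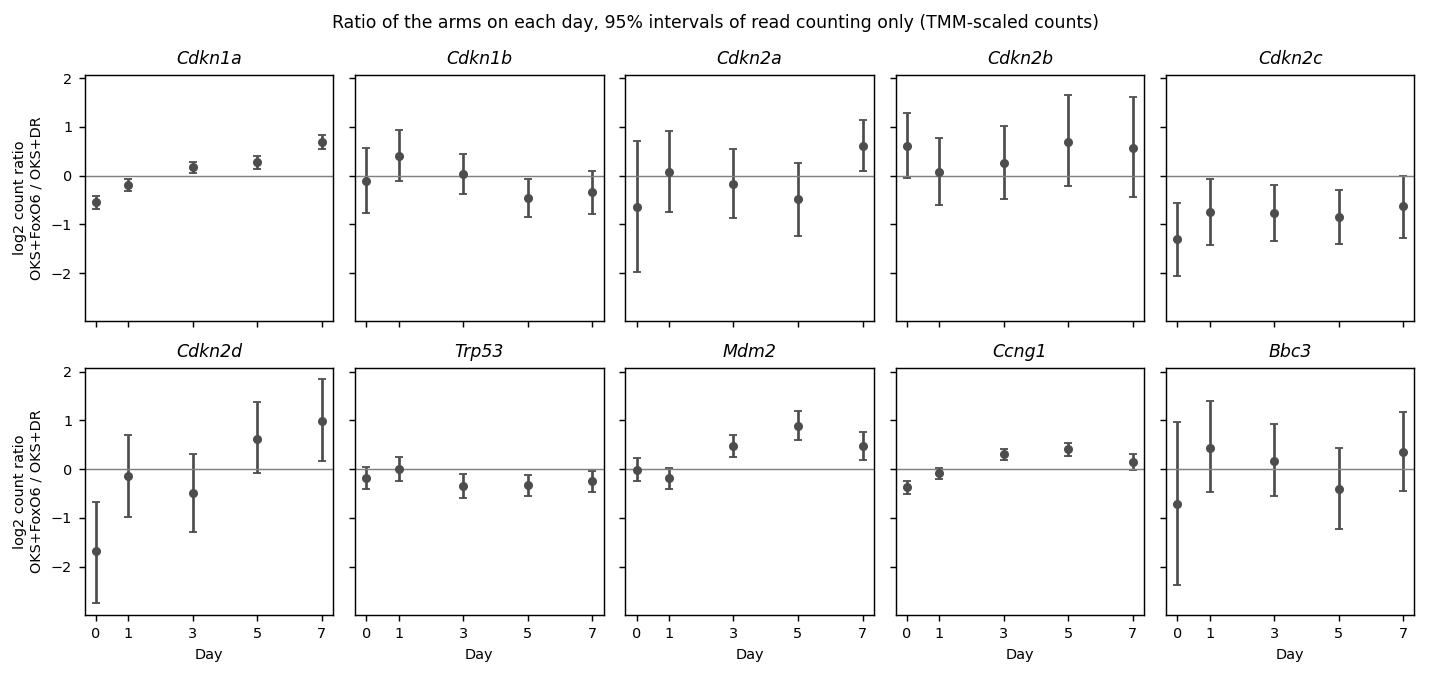
Log2 ratio of TMM-scaled counts, OKS+FoxO6 over OKS+DR (vertical axes, shared), against the day for the 10 genes, with points for the 2 libraries of a day and bars for the exact 95% interval of read counting. Cdkn1a climbs from -0.55 at day 0 to 0.69 at day 7, the points of Cdkn2c lie below 0 on all days with the bar of day 7 touching 0, and the bars of Cdkn2a, Cdkn2b, Cdkn2d and Bbc3 are wide because few reads fell on them.

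Cdkn1b (ENSMUSG00000003031; plus strand of chromosome 6, bases 134920401 to 134925513) did not pass the test of the arms. TPM values in day order were 16.5, 25.6, 34.5, 49.2 and 35.3 in OKS+DR and 18.9, 30.2, 36.8, 32.6 and 28.6 in OKS+FoxO6. It was lowest at day 0 in both arms, with overlapping ranges. At day 0 the direction depended on the scale, with a difference of 0.18 in log2(TPM + 1) and a log2 ratio of scaled counts of -0.11 (95% counting interval -0.77 to 0.58). The shift was -0.11 (standard error 0.16, adjusted p = 0.724), and its 95% interval ran from -0.46 to 0.25, which is a ratio of OKS+FoxO6 to OKS+DR between 0.727 and 1.19. In OKS+DR the TPM of Cdkn1a was 40.8 times that of Cdkn1b at day 0 and 11.8 times at day 7, and in OKS+FoxO6 it was 27.2 and 21.5 times. Cdkn1a made up between 72.1% and 84.9% of the summed TPM of the 6 inhibitors in every library. That sum was 796, 1014, 971, 738 and 576 in OKS+DR and 619, 904, 1099, 877 and 803 in OKS+FoxO6 over the days. It followed Cdkn1a because that gene makes up most of it. For the family member Cdkn1c, which encodes p57, the shift was 0.65 (standard error 0.27) with an adjusted p of 0.139, and the gene fell by 1.55 from day 0 to day 7 (adjusted p = 0.0282 in edgeR's test over days).

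Cdkn2c (ENSMUSG00000028551; minus strand of chromosome 4, bases 109660876 to 109667189) gave TPM values of 27.9, 27.4, 34.1, 42.1 and 27.5 in OKS+DR, in day order, and of 10.9, 21.2, 20.4, 22.1 and 15.3 in OKS+FoxO6. Every OKS+FoxO6 library lay below every OKS+DR library, the one gene of the 10 for which the arms did not overlap, against 3.25% of the 14837 genes whose TPM averaged 1 or more. It was lower in OKS+FoxO6 on 5 of 5 days, as were 8.58% of those genes. The shift was -0.84 (standard error 0.17, adjusted p = 0.00925, edgeR), a level of 0.557 times the control with a 95% interval of 0.427 to 0.727. The values rest on 29 to 63 reads per library. At day 1 the difference was -0.36 in log2(TPM + 1) and -0.74 in the log2 ratio of scaled counts. Over the alternatives that were tried the adjusted p lay between 0.00281 and 0.0681, and only the fit with no day term was above the threshold. Among epithelial markers all 4 tested were also lower in OKS+FoxO6, and their part in the shift of Cdkn2c was not tested.

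Cdkn2d (ENSMUSG00000096472; minus strand of chromosome 9, bases 21288410 to 21291407) reached TPM values of 27.3, 25.7, 29.2, 25.9 and 15.9 in OKS+DR and of 9.35, 23.9, 26.5, 41.3 and 28.7 in OKS+FoxO6, in day order. It was lower in OKS+FoxO6 on the first 3 days and higher on the last 2, and the ranges overlapped. The ratio of scaled counts was 0.31 at day 0 (95% counting interval 0.148 to 0.624, from 24 and 14 reads), 0.907 at day 1 (0.506 to 1.63), 0.711 at day 3 (0.408 to 1.24), 1.54 at day 5 (0.943 to 2.60) and 1.99 at day 7 (1.13 to 3.59, from 21 and 35 reads), and the intervals of days 1, 3 and 5 spanned 1. At day 3 the difference was -0.14 in log2(TPM + 1) and -0.49 in the log2 ratio of scaled counts. The shared shift was -0.07 (standard error 0.33, adjusted p = 0.921).

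Cdkn2a (ENSMUSG00000044303; minus strand of chromosome 4, bases 89274471 to 89294653) was counted as a gene with 2 transcripts, so that p16 and Arf cannot be told apart in these values. TPM values were 18.6, 39.6, 55.0, 54.5 and 69.6 in OKS+DR, from the first day to the last, and 13.4, 42.8, 50.2, 41.7 and 99.5 in OKS+FoxO6. Both arms were lowest at day 0 and highest at day 7. The shift between the arms was -0.04 (standard error 0.23, adjusted p = 0.942), from 10 to 72 reads per library.

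Cdkn2b (ENSMUSG00000073802; minus strand of chromosome 4, bases 89306299 to 89311039) lies beside Cdkn2a and went the other way over time. Its TPM was 31.4, 35.7, 26.7, 16.4 and 12.4 in OKS+DR and 52.6, 38.4, 32.4, 27.4 and 16.8 in OKS+FoxO6. OKS+FoxO6 was the higher on 5 of 5 days, as for 9.86% of the genes whose TPM averaged 1 or more, yet the ranges overlapped and the shift of 0.42 (standard error 0.20) had an adjusted p of 0.203 with an interval from -0.02 to 0.86. The TPM of Cdkn2a was 0.592 times that of Cdkn2b at day 0 and 5.63 times at day 7 in OKS+DR, and 0.254 and 5.93 times in OKS+FoxO6. Between those days the ratio was 1.11, 2.06 and 3.32 in OKS+DR and 1.11, 1.55 and 1.52 in OKS+FoxO6, so that both arms went from more Cdkn2b to more Cdkn2a transcripts.

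Trp53 (ENSMUSG00000059552; plus strand of chromosome 11, bases 69580359 to 69591873) varied least of the 10 genes, with a highest TPM 1.54 times the lowest. TPM values in day order were 239, 202, 222, 272 and 252 in OKS+DR, and OKS+FoxO6 had 227, 207, 177, 221 and 196. OKS+FoxO6 was the lower on days 0, 3, 5 and 7 and close to the control at day 1. The shift of -0.22 (standard error 0.11) had an adjusted p of 0.216, and its interval ran from -0.46 to 0.02. p53 is mostly controlled as a protein, which RNA-seq does not measure.

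Mdm2 (ENSMUSG00000020184; minus strand of chromosome 10, bases 117688875 to 117710758) started at a TPM of 138 in OKS+DR and went on to 191, 129, 94.6 and 80.2, while OKS+FoxO6 had 165, 176, 171, 157 and 79.9. After day 1 the control fell steadily, while OKS+FoxO6 held its level until day 5 and then fell to that of the control. On scaled counts the ratio of OKS+FoxO6 to OKS+DR was 0.992 at day 0 (0.844 to 1.17), 0.877 at day 1 (0.759 to 1.01), 1.39 at day 3 (1.18 to 1.63), 1.85 at day 5 (1.52 to 2.27) and 1.38 at day 7 (1.13 to 1.69). At day 7 the difference was thus -0.01 in log2(TPM + 1) and 0.47 in the log2 ratio of scaled counts. The effective length that RSEM gave the gene at day 7 was 2395 bases in OKS+DR and 3035 bases in OKS+FoxO6, and TPM is divided by it. The shift was 0.32 (standard error 0.16, adjusted p = 0.217, interval -0.03 to 0.66). The TPM of Mdm2 was 0.578 times that of Trp53 at day 0 and 0.318 times at day 7 in OKS+DR, and 0.726 and 0.408 times in OKS+FoxO6, with the largest fold gap between the arms at day 5 (0.348 and 0.711 times).

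Ccng1 (ENSMUSG00000020326; minus strand of chromosome 11, bases 40748552 to 40755311) encodes cyclin G1, which acts back on Mdm2 and p53. Its TPM was 335, 503, 402, 265 and 173 in OKS+DR and 286, 480, 503, 365 and 175 in OKS+FoxO6. As with Cdkn1a, the control peaked at day 1 and OKS+FoxO6 at day 3, and both arms ended near the same level. The ratio of scaled counts was 0.774 at day 0 (0.704 to 0.850), 0.940 at day 1 (0.871 to 1.02), 1.24 at day 3 (1.14 to 1.34), 1.32 at day 5 (1.20 to 1.46) and 1.11 at day 7 (0.984 to 1.25), the intervals of days 1 and 7 spanning 1, and the shared shift was 0.08 (standard error 0.13, adjusted p = 0.747).

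Bbc3 (ENSMUSG00000002083; plus strand of chromosome 7, bases 16308393 to 16318205) had the lowest mean TPM of the 10 genes. Its TPM was 6.99, 14.4, 21.9, 20.9 and 27.5 in OKS+DR and 6.22, 19.8, 35.4, 22.4 and 28.4 in OKS+FoxO6, from 7 to 43 reads per library. Both arms were lowest at day 0. On scaled counts the ratio of OKS+FoxO6 to OKS+DR was 0.607 at day 0 (95% counting interval 0.193 to 1.97), 1.36 at day 1 (0.723 to 2.62), 1.13 at day 3 (0.687 to 1.89), 0.754 at day 5 (0.426 to 1.34) and 1.28 at day 7 (0.732 to 2.25), so that the higher TPM of OKS+FoxO6 at day 5 turned into a lower scaled count. The effective length of Bbc3 was 1754 bases in OKS+DR and 1245 in OKS+FoxO6 at day 3, and 1749 and 1280 bases at day 5. The shift was 0.05 (standard error 0.25, adjusted p = 0.927), with an interval from -0.49 to 0.59.

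Taken day by day on the log2(TPM + 1) scale, 2 of the 10 genes were more than 2-fold apart at day 0, both lower in OKS+FoxO6, Cdkn2d with -1.45 and Cdkn2c with -1.28, where 16.7% of the genes whose TPM averaged 1 or more were as far apart in either direction. At days 1, 3, 5 and 7 none of the 10 was, against 17.3%, 19.9%, 21.5% and 24.5% of those genes. The largest differences on these later days were -0.90 for Cdkn2c at day 5 and 0.82 for Cdkn2d at day 7. With 1 library per arm and day these differences have no replicate check.

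Cdkn2a, Bbc3 and Cdkn1b rose over the days in both arms taken as one, and Cdkn2b, Ccng1 and Mdm2 fell. A change over the days shared by both arms was tested with edgeR's quasi-likelihood test of the 4 day coefficients, with arm as a covariate and the arms as the repeats of each day. It was passed by 6 of the 10 genes, where 19.6% of all genes tested passed. Each adjusted p below belongs to the day coefficients together, and the change from day 0 to day 7 was not tested by itself. Cdkn2a rose by 2.47 on the log2 scale from day 0 to day 7 (adjusted p = 0.00890), Bbc3 by 1.82 (adjusted p = 0.0366) and Cdkn1b by 1.05 (adjusted p = 0.0186), the last with its highest fitted level at day 5 (1.36). Cdkn2b fell by 1.47 (adjusted p = 0.0314), Ccng1 fell by 0.81 (adjusted p = 0.00509) after a fitted rise of 0.54 at day 1, and Mdm2 fell by 0.76 (adjusted p = 0.0480). For Cdkn1a the adjusted p was 0.325, for Trp53 0.346, for Cdkn2c 0.347 and for Cdkn2d 0.736. Without day 0 the calls of Cdkn1b (adjusted p = 0.336), Cdkn2a (0.120), Cdkn2b (0.141), Mdm2 (0.0551) and Bbc3 (0.720) were lost. The change from the first to the last day left, then day 1 to day 7, was 0.23 for Bbc3, 1.15 for Cdkn2a, 0.36 for Cdkn1b, -1.21 for Cdkn2b, -1.05 for Mdm2 and -1.36 for Ccng1, which kept its call. Without day 7 those of Cdkn2b (0.0909), Mdm2 (0.109) and Ccng1 (0.0602) were lost, with a change from day 0 to day 5 of -1.04 for Cdkn2b, -0.52 for Mdm2 and -0.11 for Ccng1, and that of Cdkn2a was 1.47 with its call kept. Mdm2 was also lost without day 1 (change -0.81, adjusted p = 0.0904), Cdkn2b without day 5 (-1.48, adjusted p = 0.0505) and Bbc3 without day 3 (1.80, adjusted p = 0.0761). DESeq2 in place of edgeR did not call Cdkn2b (change -1.49, adjusted p = 0.115) or Bbc3 (1.79, adjusted p = 0.101), and upper quartile scaling did not call Mdm2 (-0.76, adjusted p = 0.0545). All 9 fibroblast markers called over the days fell, and their part in these changes was not tested.

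**Figure D4:**
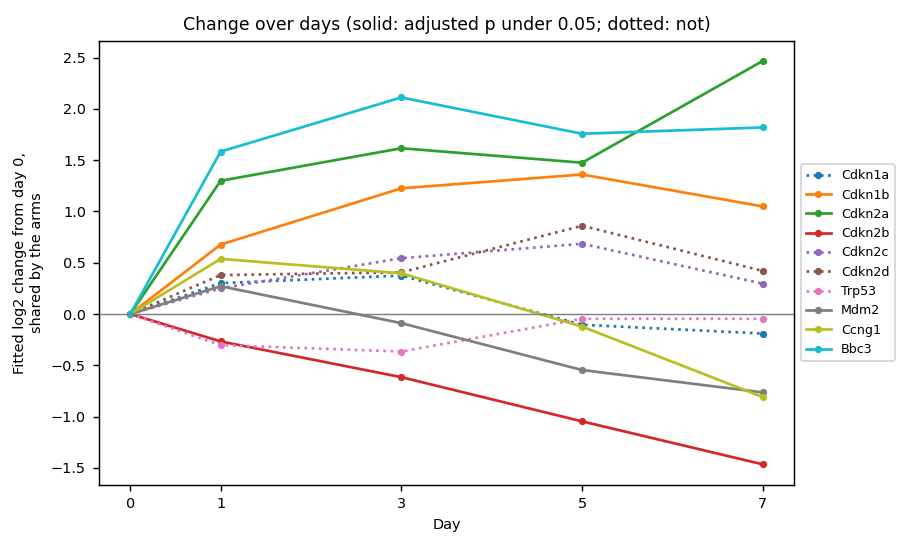
Fitted log2 change from day 0, shared by the arms (vertical axis), against the day for the 10 genes, as solid lines where the change over days passed the test and dotted lines where it did not. Among the solid lines, Cdkn2a, Bbc3 and Cdkn1b lie above 0 from day 1 on, Cdkn2b falls throughout, and Mdm2 and Ccng1 are above 0 at day 1 and at their lowest at day 7. Among the dotted lines, Cdkn2c and Cdkn2d also lie above 0 from day 1 on. The dotted line of Cdkn1a is above 0 at day 1 and lowest at day 7.

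Mdm2, Ccng1 and Cdkn1a correlated with each other across the 10 libraries. Pearson's r of log2(TPM + 1) was 0.90 between Mdm2 and Ccng1, 0.86 between Cdkn1a and Ccng1 and 0.68 between Cdkn1a and Mdm2, while that of Cdkn1a and Trp53 was -0.72. The other p53 target among the 10 genes, Bbc3, did not follow them, with r of 0.17 with Cdkn1a, -0.36 with Mdm2 and -0.08 with Ccng1. Cdkn2b and Mdm2 reached 0.91, as did Cdkn2a and Bbc3. These libraries share their days and scaling, so the values are a description. The promoters of Mdm2, Ccng1 and Cdkn1a are shown, and that of Cdkn2c as the gene that differed between the arms. They are the 250 bases before the start of transcription in RefSeq on GRCm38.p6, for Cdkn1a and Cdkn2c the farther upstream of 2 starts. Capitals mark matches to the 10-base p53 motif, of which a full response element holds a pair, or to the FoxO core GTAAACA, both searched on both strands together with the E2F pattern TTTCCCGC.

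Cdkn1a, chr17:29090729-29090978, plus strand: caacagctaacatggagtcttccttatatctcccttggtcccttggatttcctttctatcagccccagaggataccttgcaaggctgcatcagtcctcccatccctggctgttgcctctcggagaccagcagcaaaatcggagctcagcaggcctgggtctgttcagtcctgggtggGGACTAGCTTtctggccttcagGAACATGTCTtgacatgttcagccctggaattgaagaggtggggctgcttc
Mdm2, chr10:117710759-117711008, minus strand: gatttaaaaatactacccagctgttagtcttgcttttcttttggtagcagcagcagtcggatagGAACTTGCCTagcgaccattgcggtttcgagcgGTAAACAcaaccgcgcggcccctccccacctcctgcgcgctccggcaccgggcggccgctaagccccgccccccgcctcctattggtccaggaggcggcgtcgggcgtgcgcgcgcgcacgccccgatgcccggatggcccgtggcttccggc
Ccng1, chr11:40755287-40755536, minus strand: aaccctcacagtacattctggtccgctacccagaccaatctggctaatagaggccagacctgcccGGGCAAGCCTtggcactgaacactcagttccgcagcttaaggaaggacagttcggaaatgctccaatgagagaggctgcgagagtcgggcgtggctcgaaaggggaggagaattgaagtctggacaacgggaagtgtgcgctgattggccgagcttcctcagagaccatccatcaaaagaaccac
Cdkn2c, chr4:109666757-109667006, minus strand: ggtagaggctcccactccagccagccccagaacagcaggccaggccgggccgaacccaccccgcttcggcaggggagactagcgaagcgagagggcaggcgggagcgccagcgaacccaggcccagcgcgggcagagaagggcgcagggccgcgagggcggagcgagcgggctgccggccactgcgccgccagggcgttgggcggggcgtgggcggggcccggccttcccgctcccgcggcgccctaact

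The Cdkn1a window held 2 such p53 motifs, the first from 73 to 64 bases before the start and the second from 51 to 42, close enough to count as a pair (at most 13 bases apart), which 0.0639% of the 32851 promoters of the table had. The downstream promoter of Cdkn1a, not shown, held no such pair. Only full matches to the pattern were marked, so a site with a mismatch stays in small letters. Mdm2 and Ccng1 held 1 p53 motif each and Cdkn2c none. The 10 genes have 15 promoters in the table, of which 5, those of Trp53 and Cdkn2d included, held a p53 motif, against 7.13% of all promoters. The FoxO core was found in Mdm2, from 153 to 147 bases before the start, and in the second promoter of Bbc3, against 3.17% of all promoters. The E2F pattern was found in the upstream promoter of Cdkn2a, against 0.895%. A match is only a run of letters, and binding was not measured.

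Outside the 10 genes, 31 further targets of p53 were listed, of which 30 passed the filter. Of these, 3 were higher in OKS+FoxO6 over the days and none was lower, with a median shift of 0.04. Gadd45a, a stress gene that is also a target of FoxO factors, had a TPM between 21.6 and 59.0 in OKS+DR and between 180 and 227 in OKS+FoxO6, with a shift of 2.34 (standard error 0.19, adjusted p = 6.32e-05). Perp, a membrane protein of desmosomes, had a shift of 0.95 (standard error 0.19, adjusted p = 0.00701), higher on 5 of 5 days, and Trp53inp1, which acts with p53 in stress and autophagy, one of 0.72 (standard error 0.16, adjusted p = 0.0129), higher on 4 of 5 days. The share called higher was 3 of 30, against the 6.99% of all genes. Of 22 regulators of p53, such as Mdm4 and Atm, 20 were tested and none passed in either direction, with a median shift of -0.11. Over the days 9 of the 30 targets passed the test, 5 of them higher and 4 lower at day 7 than at day 0, against 19.6% of all genes, and 2 of the 20 regulators did.

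The CDKs, cyclins and pocket proteins on which the inhibitors act were taken as a list of 20 genes, which also held E2f7. Of these, 4 were lower in OKS+FoxO6, against 7.13% of all genes, and none higher. The cyclin genes were Ccnd1 with a shift of -0.91 (standard error 0.11, adjusted p = 0.000404), Ccnd2 with -0.83 (standard error 0.16, adjusted p = 0.00558) and Ccna2 with -0.72 (standard error 0.14, adjusted p = 0.00610), and E2f7, a repressor among the E2F factors, had -0.71 (standard error 0.21, adjusted p = 0.0491). The median shift of the list was -0.17. Of 6 genes for the turnover of p27, Skp2, the F-box protein that targets p27 for degradation, was lower by the test, with -0.63 (standard error 0.16, adjusted p = 0.0287). The median shift of the 6 was 0.04, with 4 above 0 and 2 below. Of 17 regulators of the Ink4 genes, Id1, an inhibitor of the Ets activation of p16, was lower with -1.77 (standard error 0.24, adjusted p = 0.000968), and the median shift was -0.15. Of 14 genes of the BCL2 family, to which Bbc3 belongs, 11 were tested and 2 were lower, Bok with -1.03 (standard error 0.30, adjusted p = 0.0448) and the survival gene Bcl2 with -0.85 (standard error 0.18, adjusted p = 0.0114), with a median shift of 0.0007.

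The genes with the most similar course over the 10 libraries were sought among 9806 genes averaging a TPM of 10 or more, by Pearson's r of log2(TPM + 1). They were Ccnd3 (0.95) and Nrcam (0.95) for Cdkn1a, Kat2b (0.97) for Cdkn1b, and Antxr2 (0.99) and Nptn (0.98) for Cdkn2b. For Cdkn2c they were St6gal1 (0.97) and Adh5 (0.96), for Cdkn2d Dolpp1 (0.92) and Macrod2 (0.90), and for Trp53 Them6 (0.92) and Dcaf13 (0.91). Mdm2 was nearest to Nploc4 (0.98) and Lasp1 (0.97), and Ccng1 to Gm53 (0.97) and to Eda2r (0.95), which is on the list of p53 targets. The mitochondrial transcripts mt-Nd4 (0.97) and mt-Cytb (0.97) were nearest to Bbc3, and mt-Nd1 (0.96) and Ahsg (0.96) to Cdkn2a. These libraries share their days and scaling, and nothing about shared control follows from the values.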

How the data were processed

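Bulk RNA-seq libraries of 2 arms and 5 days were used. Alignment by the authors used bowtie2 within RSEM and the GENCODE M13 transcriptome (mm10 in the submitters' processing notes). RSEM's expected counts were deposited as they came, not normalized, and the TPM column of the same deposited output was used as given. The versions of RSEM and bowtie2 are not given in the sources used here. The paper's methods name a TruSeq kit and the labels a VAHTS kit, and the use of strand in counting is not given. The counts of the 48476 genes of the series table were identical in the files per library.

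Expected counts were rounded and tested with edgeR 4.0.16 (R 4.3.3), TMM and filterByExpr by arm, with Benjamini-Hochberg adjustment. Standard errors are the size of the log2 change divided by the square root of F. DESeq2 1.42.0 was an alternative. On simulated data with 200 genes changed 4-fold, the shift test recovered 200 of 200 with 4 false calls among 10871 genes, the test over days 189 of 194 with 4 among 10861, and the trend test 101 of 200 with 5 among 10861. Differences in log2(TPM + 1) and intervals were computed with Python 3.11.15, pandas 2.3.3 and scipy 1.17.1. Positions are from GENCODE M21 on GRCm38. Other genes were named from lists, up to 6 per list by the size of a called shift, and 2 nearest genes per member, of which 1 is not reported here. The genes and lists were chosen with earlier results of these data known. RNA reads without molecular identifiers are not independent molecules, so intervals cover counting error only.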

Additional observations from a re-analysis of the deposited data

Results flagged for a closer look

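Cdkn1a was marked because its difference between the arms changed with the day, by a test of that change itself. The slope of OKS+FoxO6 against OKS+DR was 0.16 per day on the log2 scale (standard error 0.04, edgeR, adjusted p = 0.0390), with an interval from 0.08 to 0.24. Over the 10 alternatives the adjusted p lay between 0.00462 and 0.286 and was under 0.05 in 6 of them.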

How the results depend on the processing

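The 10 genes kept their side of the threshold in 109 of 110 alternatives of the arm shift, 85 of 100 of the change over days and 95 of 100 of the trend, and no call was reversed. These totals include the genes that had no call to lose. A call was lost in 14 of the 100 over days and in 4 of the 100 of the trend, all 4 for Cdkn1a. In the arm shift Cdkn2c was lost with no day term (adjusted p = 0.0681). In the change over days, Cdkn1a passed with no filter (adjusted p = 0.0471). On scaled counts in place of TPM, 4 of the 50 differences by day moved further than their counting interval reaches to one side, Mdm2 at days 0 (-0.01) and 7 (0.46), Cdkn1a (-0.55) and Ccng1 (-0.37) at day 0.

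Over all genes, 767 were called higher and 783 lower in the arm shift, between 356 and 812 and between 307 and 813 with a day left out (378 and 338 without day 3, 356 and 307 without day 5), and 124 and 44 with no day term. Changed over days were 2153 genes, 3816 with no filter and between 1056 (without day 0) and 2485 with a day left out. In the trend 132 were called higher and 84 lower, 319 and 309 with no filter, 72 and 51 with DESeq2, and between 44 and 127 and between 28 and 156 with a day left out (higher 86 without day 0, 63 without day 1 and 44 without day 7, lower 28 without day 0, 156 without day 5 and 36 without day 7). With a mean TPM of at least 5, the genes 2-fold apart numbered 1359, 1337, 1591, 1762 and 2192 at days 0, 1, 3, 5 and 7, in place of 2476, 2564, 2949, 3196 and 3640. The causes were not tested, other than that fewer genes enter under the stricter TPM minimum and more with no filter. The lowest counts were 7 reads for Bbc3 and 10 for Cdkn2a, and the widest interval of the arm shift was that of Cdkn2d (-0.80 to 0.66).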
